A study of Mus musculus with 947 samples.

Results

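Small noncoding RNA of mouse spleen was compared with that of bone marrow in 98 libraries, 48 of spleen and 50 of marrow, out of 771 libraries of 16 tissues in the aging cohort and 947 in the whole series. The libraries were chosen by tissue and age, from mice of 3 to 27 months, and spleen library 1 of 3 months was left out. The mice were C57BL/6JN from the National Institute on Ageing colony, labelled as controls, with no further treatment named, the females virgin, and were perfused with PBS before dissection. Marrow was taken from femurs and tibiae, and both tissues were sequenced whole, without cell sorting. Each of the 9 ages held 4 to 6 libraries per tissue. Females gave 13 spleen and 14 marrow libraries, all of 21 months or younger, so 24 and 27 months rest on males alone. Levels are reads per 1000000 mapped reads (rpmm), and differences are spleen minus marrow on the log2(rpmm + 1) scale, from 1 model with age and sex as covariates. A bulk level mixes all cells of a tissue, so fewer cells of a type and less RNA per cell cannot be told apart.

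A microRNA (miRNA) is cut from a hairpin precursor, whose arms give a 5p and a 3p product. It finds its messenger RNAs through the seed, the bases just behind its first. Several miRNAs mark blood lineages. miR-150 and miR-342 are known from mature lymphocytes, miR-155 from activated lymphocytes and macrophages, miR-142 from all white blood cells, miR-223 from granulocytes and monocytes, and the paired miR-144 and miR-451a from red cell precursors. The miR-181 family is abundant in thymocytes and early B cells. Spleen holds B and T cell areas in a frame of smooth muscle, fibroblasts and vessels, with macrophages that clear old red cells. Marrow makes granulocytes and red cells and holds the precursors of B cells.

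The mature sequences on which the results turn are shown 5′ to 3′, with the seed, bases 2 to 8, in capitals. They were taken from RefSeq (GRCm38.p6), where 144 of the 168 named miRNAs and 451 of the 578 tested ones had an entry. The first lines are the 3 miR-29 miRNAs, which share a seed and were all higher in spleen. They are followed by miR-155-5p, by both arms of miR-142a and the near-identical miR-3964, by the myeloid and erythroid miRNAs of marrow, by the 4 miR-181 miRNAs, by miR-196, and by the miR-17 family, whose members share a seed and went in both directions.
miR-29a-3p: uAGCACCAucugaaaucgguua
miR-29b-3p: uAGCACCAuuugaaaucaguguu
miR-29c-3p: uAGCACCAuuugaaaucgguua
miR-155-5p: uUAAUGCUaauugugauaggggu
miR-142a-5p: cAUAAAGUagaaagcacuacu
miR-142a-3p: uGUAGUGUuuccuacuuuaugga
miR-3964: aUAAGGUAgaaagcacuaaa
miR-223-3p: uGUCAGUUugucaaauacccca
miR-451a: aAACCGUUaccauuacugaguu
miR-144-3p: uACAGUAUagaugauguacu
miR-181a-5p: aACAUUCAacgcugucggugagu
miR-181b-5p: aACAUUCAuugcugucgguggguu
miR-181c-5p: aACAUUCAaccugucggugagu
miR-181d-5p: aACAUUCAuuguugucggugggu
miR-196a-5p: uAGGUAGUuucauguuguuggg
miR-196b-5p: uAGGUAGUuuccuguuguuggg
miR-17-5p: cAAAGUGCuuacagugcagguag
miR-20a-5p: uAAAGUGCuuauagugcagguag
miR-93-5p: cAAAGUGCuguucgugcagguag
miR-106b-5p: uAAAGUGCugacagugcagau
miR-106a-5p: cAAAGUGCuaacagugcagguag
miR-20b-5p: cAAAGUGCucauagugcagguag

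A set of spleen libraries stood apart. Titles number the libraries within a tissue. The 30 spleen libraries numbered 3 to 36 and the 18 numbered 38 to 56 separated on the first principal component of spleen miRNA levels, which held 51.8% of their variance, and 17 of the 18 lay beyond every lower-numbered library. In marrow the first component held 20.6%, and 1 of the 17 libraries numbered above 36 lay beyond the others. The 18 spleen libraries had no member at 3 months and 1 to 3 at each later age, and the cause was not tested. Where leaving them out ended a call, turned a direction or moved a named value by over 1.5 times, the value without them is given as well. Spleen library 1 of 3 months was left out of all comparisons, with Pearson's r of 0.852 to the spleen median over miRNAs, where the other spleen libraries reached 0.963 to 0.997. Marrow library 16 of 15 months held 22311 rpmm of the hepatocyte miRNA miR-122-5p, where the other marrow libraries held at most 498.5 and spleen at most 51.2. In units of 1000000 mapped reads, depth was 5.72 to 41.3 in spleen and 9.91 to 32.0 in marrow, beside 166.9 in marrow library 12.

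Both tissues carried the miRNAs of white blood cells in every library. miR-142a-3p was at 7671 rpmm or more in each spleen library and at 5813 or more in each marrow library. Among the medians of 16 tissues, spleen was first and marrow second for miR-142a-3p, miR-142a-5p and miR-150-5p. Marrow was first for miR-223-3p, miR-451a and miR-144-3p, with spleen second for the latter pair and at rank 4 for miR-223-3p.

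The first question was which RNAs separate a lymphoid organ from the organ where blood cells are made. Lymphocyte, leukocyte and smooth muscle miRNAs were higher in spleen. The granulocyte miRNA miR-223, the red cell miRNAs, the miR-181 family and most members of the proliferation list were higher in marrow. Of the 13 tested miRNAs of the myeloid list as a whole, however, 7 were called toward spleen and 5 toward marrow. The most abundant of the miR-181 miRNAs, miR-181a-5p, was not called without the 18 spleen libraries. Of 578 miRNAs tested, 224 (38.8%) were higher in spleen and 223 (38.6%) higher in marrow at an adjusted p under 0.05, 77.3% in either direction, with a median difference of 0.01. At least 2-fold differences were called for 61 miRNAs (10.6%) toward spleen and 68 (11.8%) toward marrow. Of those called, 170 of 224 and 155 of 223 had the same direction of their means at all 9 ages. Without the 18 spleen libraries the counts were 307 (52.9%) and 164 (28.3%) of 580. They also moved with the scaling of a library. Median-ratio scaling, which raised spleen by 0.37 against marrow on the log2 scale, gave 314 and 148. Scaling to miRNA reads, which lowered spleen by 0.20, gave 186 and 260. A difference smaller than these shifts can change direction with the scaling.

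**Figure D1:**
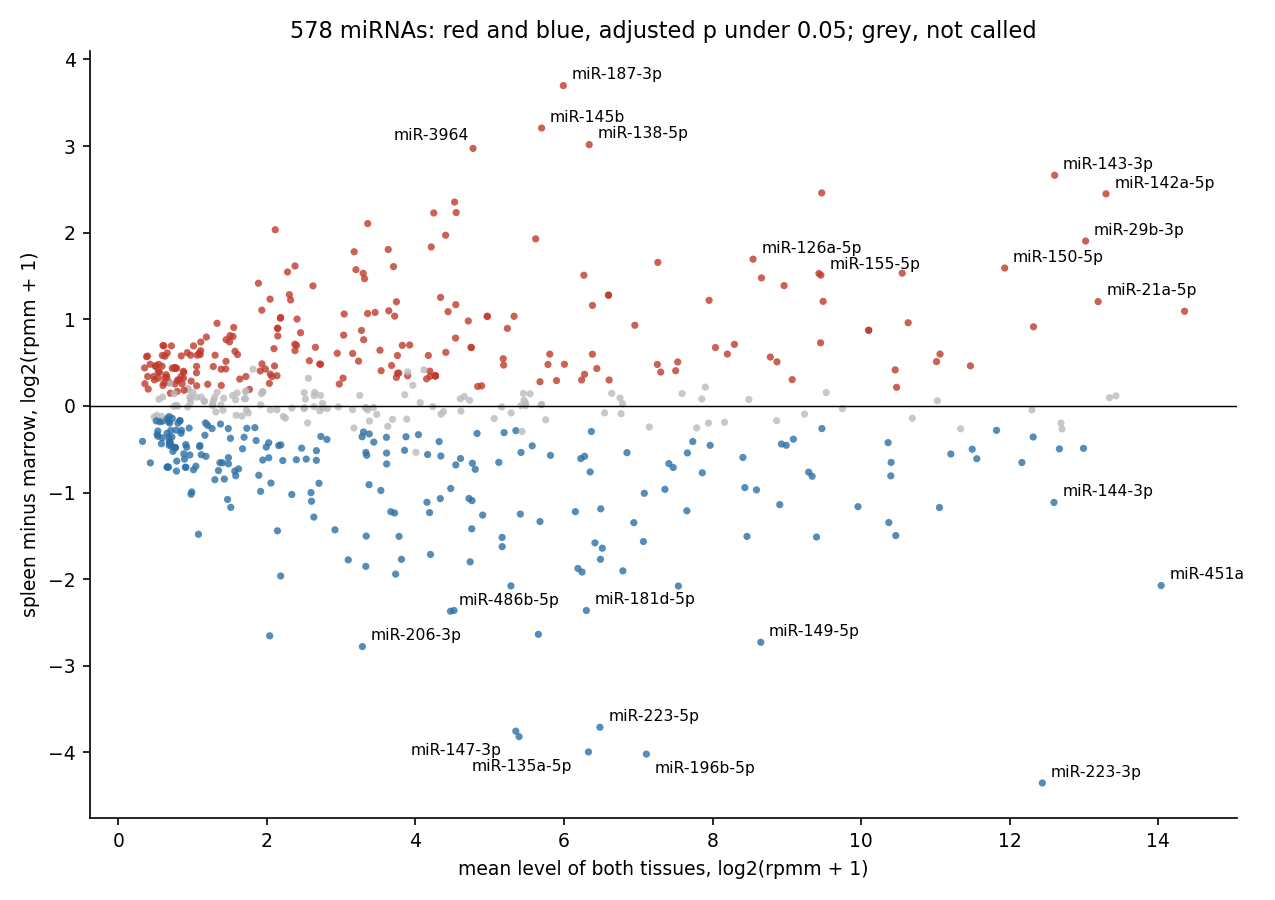
Difference of each of the 578 miRNAs (y axis, spleen minus marrow, log2(rpmm + 1)) against its mean level over both tissues (x axis, same scale), with 1 point per miRNA, red where higher in spleen, blue where higher in marrow and grey where not called. The largest negative difference, -4.35 for miR-223-3p, belongs to an abundant miRNA, while the largest positive one, 3.70 for miR-187-3p, belongs to a miRNA of middle level.

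Full separation of the libraries was rare. 7 miRNAs (1.21%) had every marrow library above every spleen library, namely miR-223-3p, miR-196b-5p, miR-196a-5p, miR-135a-5p, miR-135a-1-3p, miR-181d-5p and miR-129b-5p. In the opposite direction 1 miRNA (0.173%) did so, miR-145b, which lies outside the lists, at 22.5 to 264 rpmm in spleen and 3.14 to 21.1 in marrow. Of these, miR-135a-1-3p and miR-129b-5p lay outside the naming rule and were chosen after their values were seen. miR-135a-1-3p stayed between 0.0 and 0.441 rpmm in spleen and ran from 1.74 to 11.7 in marrow. miR-129b-5p ran from 0.0 to 0.661 in spleen and from 0.716 to 9.28 in marrow. The tissue ranks of miR-145b were those of miR-145a-5p, a smooth muscle miRNA of the lists. For both, mesenteric fat was first, spleen ranked 8 and marrow 16 of 16 tissues. Whether these miRNAs share reads was not tested.

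The lymphocyte list was higher in spleen nearly throughout. Of its 13 miRNAs, 12 were tested, 11 were higher in spleen, none was higher in marrow, and the median difference was 1.01. Without the 18 spleen libraries all 12 were higher, with a median of 1.35. Beside the values named here, miR-342-3p (0.56), miR-342-5p (0.78), miR-150-3p (1.08), miR-28a-5p (0.93), miR-28a-3p (0.58) and miR-146a-3p (1.42) were also called toward spleen. miR-342-3p and miR-28a-3p moved to 1.04 and 0.95 without the 18. The summed level of the list ran from 13198 to 58695 rpmm in spleen, with a median of 31286, and from 5065 to 24189 in marrow, with a median of 11195. A large part came from the miR-29 miRNAs, which other tissues also hold. Their spleen medians were 6565 (miR-29a-3p), 11997 (miR-29b-3p) and 946 rpmm (miR-29c-3p).

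miR-150-5p, which restrains the transcription factor Myb as lymphocytes mature, had a lowest, median and highest level of 760, 5549 and 16769 rpmm in spleen. In marrow the same values were 437, 1528 and 3458 rpmm. Spleen was higher at each of the 9 ages, with a log2 difference of 1.59 (SE 0.18, limma adjusted p 2.65e-13), and 34 of the 48 spleen libraries lay above all marrow libraries. The 18 spleen libraries that stood apart had a median of 2294 rpmm against 6900 in the other 30, and without them the difference was 2.11.

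miR-155-5p, which is processed from an exon of the noncoding Mir155hg at chr16:84714143-84714165 (+, GRCm38) and is needed for germinal centre and T cell responses, showed 352, 964 and 2596 rpmm in spleen. In marrow it showed 120, 318 and 705. The difference was 1.51 (SE 0.12, adjusted p 2.52e-20), with 33 of 48 spleen libraries above all of marrow. Of 16 tissues, spleen had the highest median and marrow the third.

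The 3 miR-29 miRNAs, which are known to repress collagens and DNA methyltransferases, were all higher in spleen. miR-29b-3p led with 3437, 11997 and 32359 rpmm in spleen against 1472, 3080 and 7962 in marrow. Its difference was 1.90 (SE 0.12, adjusted p 8.09e-26), and 42 of 48 spleen libraries lay above all of marrow. miR-29c-3p differed by 1.53 and miR-29a-3p by 0.91, and the latter by 1.47 without the 18 spleen libraries. The miR-29 genes lie in 2 pairs, at chr6:31062673-31063088 (-) and in an exon of a noncoding transcript at chr1:195037050-195037621 (+). All 4 tested products of either pair were higher in spleen. Spleen ranked 4 and marrow 15 of 16 tissues for miR-29b-3p, after brain, lung and kidney. Spleen ranked only 10 for miR-29a-3p and 12 for miR-29c-3p, with brain first for both.

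miR-146a-5p, a brake on NF-kB signaling, was the one lymphocyte miRNA not called. It had 131, 1539 and 4655 rpmm in spleen and 491, 1265 and 6874 in marrow, ranges that overlap almost wholly. The difference was -0.14 (SE 0.22, adjusted p 0.537). Without the 18 spleen libraries, whose median was 436.5 against 2177 in the other 30, it was 0.66 (adjusted p 0.00011). The opposite arm, miR-146a-3p, differed by 1.42 with a median of 3.84 rpmm in spleen and 0.813 in marrow.

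miR-142a, expressed from an intron of Mir142hg at chr11:87756867-87756925 (+) and found throughout the white blood cells, made up the pan-leukocyte list, and both arms were higher in spleen, with a median of 1.77, or of 1.09 without the 18 spleen libraries. miR-142a-3p was the most abundant miRNA of spleen and the second of marrow by mean, at 7671, 24252 and 77525 rpmm against 5813, 11565 and 34459. It differed by 1.09 (SE 0.14, adjusted p 2.44e-11), and by 0.63 without the 18 spleen libraries. miR-142a-5p had 1959, 7875 and 84482 rpmm in spleen against 1005, 2197 and 4017 in marrow. This arm differed by 2.45 (SE 0.20, adjusted p 1.04e-19), and by 1.55 without the 18, whose median was 34329 against 6396 in the other 30. In marrow the libraries numbered above 36 had a median of 2051 and the others 2207, so no such split appeared there. miR-3964 followed miR-142a-5p, with a difference of 2.97. It is identical to miR-142a-5p at 17 of 20 bases, and its level was 1.34 to 5.23 rpmm per 1000 rpmm of miR-142a-5p in spleen and 0.460 to 2.53 in marrow, so reads of the abundant miRNA that were assigned to it cannot be told apart from its own.

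**Figure D2:**
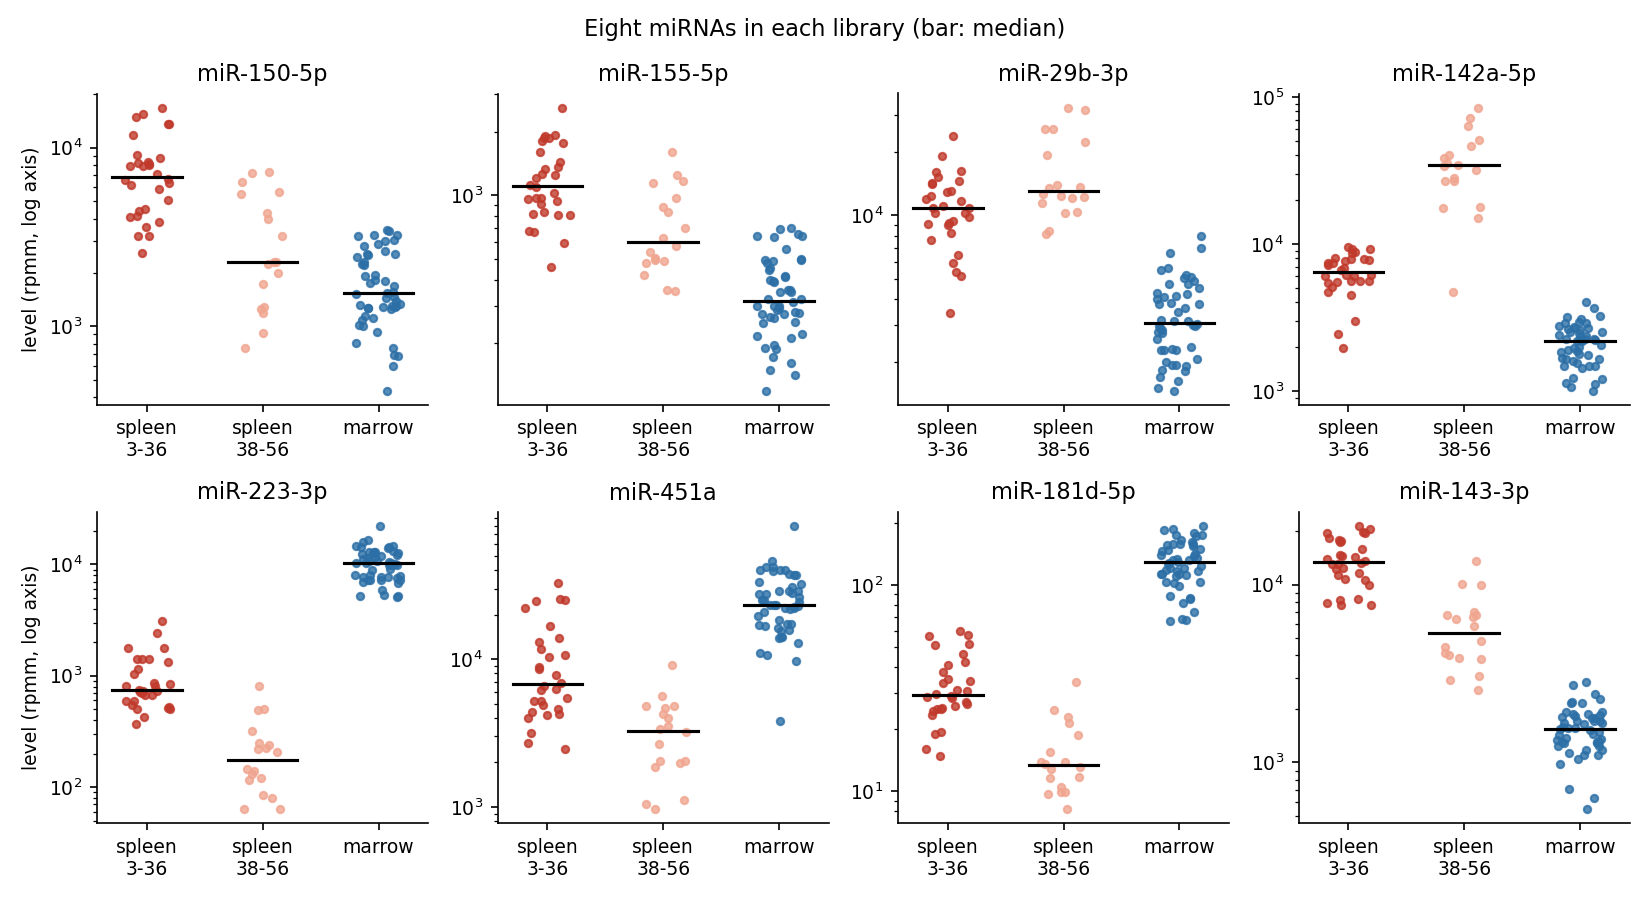
Level of 8 miRNAs in every library (y axis, rpmm, log scale), with spleen libraries numbered 3 to 36, spleen libraries numbered 38 to 56 and all marrow libraries in separate columns and a bar at each median. miR-223-3p and miR-181d-5p separate marrow from both spleen columns, while miR-150-5p and miR-142a-5p differ between the spleen columns (medians 6900 and 2294, and 6396 and 34329).

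The activated T cell list, the miR-182, miR-96 and miR-183 cluster that is induced when T cells divide, was low in both tissues. All 3 tested members were higher in spleen, with a median difference of 0.64, but their summed level ran only from 4.50 to 53.5 rpmm in spleen and from 3.62 to 26.2 in marrow.

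The myeloid list went in both directions. Of 13 tested members 7 were higher in spleen and 5 in marrow, against 38.8% and 38.6% of all tested miRNAs. The median was 0.40. Without the 18 spleen libraries the counts were 8 and 4, against 52.9% and 28.3%, with a median of 0.71. miR-223, which limits the output and activity of granulocytes, stood out. miR-223-3p had 63.4, 566 and 3113 rpmm in spleen against 5055, 10319 and 22085 in marrow. Every marrow library lay above every spleen library, with a difference of -4.35 (SE 0.20, adjusted p 4.74e-36), and of -3.54 without the 18 spleen libraries. The 5p arm of the same hairpin, miR-223-5p at chrX:96242842-96242864 (+), had 4.03, 9.97 and 133 rpmm in spleen and 59.2, 152 and 431 in marrow, a difference of -3.71 (SE 0.14, adjusted p 4.97e-44). Of 16 tissues, bone came after marrow for miR-223-3p, at a median of 2198 rpmm.

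The other myeloid members differed far less. miR-146b-5p, which is raised by inflammatory signals in monocytes, had 14.9, 53.3 and 134 rpmm in spleen and 66.0, 110 and 304 in marrow, a difference of -1.19 (SE 0.13, adjusted p 1.09e-13), and of -0.79 without the 18 spleen libraries. miR-21a-5p, abundant in macrophages and in many other cells, had 3751, 12024 and 34514 rpmm in spleen against 1867, 5166 and 21600 in marrow. It was higher in spleen at all 9 ages by 1.204 (SE 0.13, adjusted p 7.2e-15). From the miR-23a, miR-27a and miR-24-2 cluster, miR-24-3p (0.51, and 1.03 without the 18) and miR-27a-3p (0.46, and 0.71) were called toward spleen and miR-23a-5p (-0.73) toward marrow. miR-23a-3p was called toward marrow at -0.42, yet its difference was 0.14 (adjusted p 0.118) without the 18 spleen libraries. These last miRNAs are also present in fibroblasts and vessels, whose miRNAs were higher in spleen too, and the part of those cells was not tested.

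The erythroid list was higher in marrow without exception. All 8 tested members were called toward marrow, with a median of -1.55, and all 8 again without the 18 spleen libraries, with a median of -1.68. miR-486b-3p, the least different at -0.61, was not called with median-ratio scaling or by edgeR. The summed level of the list ran from 2442 to 41874 rpmm in spleen, with a median of 8830, and from 5338 to 96953 in marrow, with a median of 32341.

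miR-451a, which is cut by Argonaute 2 rather than by Dicer and is needed for red cell maturation under stress, was the most abundant miRNA of marrow. It had 966, 4848 and 32583 rpmm in spleen and 3807, 23312 and 79678 in marrow. The difference was -2.07 (SE 0.19, adjusted p 3.14e-17), the mean was higher in marrow at all 9 ages, and the ranges overlapped, since 14 of 48 spleen libraries lay below all of marrow. Its neighbour miR-144-3p, from the same transcript at chr11:78073010-78073207 (+), had 677, 2914 and 15530 rpmm in spleen and 1468, 7198 and 21630 in marrow, a difference of -1.11 (SE 0.21, adjusted p 2.48e-06). miR-144-5p differed by -1.58. miR-486a-5p, from a hairpin inside an ankyrin gene that is also active in muscle, had 0.708, 4.30 and 179 rpmm in spleen and 6.38, 28.3 and 136 in marrow. It differed by -2.36 (SE 0.18, adjusted p 1.07e-21), and miR-486b-5p, which shares its reads, by -2.37. miR-210-3p, a miRNA of hypoxia, differed by -1.07, and by -0.55 without the 18 spleen libraries.

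The lymphoid precursor list, the miR-181 family, was higher in marrow even though spleen is the organ with more lymphocytes. All 6 tested members were called toward marrow, with a median of -1.18, or of -0.71 without the 18 spleen libraries. The other 4 were below the filter. The 4 mature 5p products share the seed ACAUUCA and differed by unequal amounts.

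miR-181d-5p, from an intron of Nanos3 at chr8:84178759-84178781 (-), separated the tissues fully, with 8.20, 25.1 and 59.7 rpmm in spleen and 67.2, 128 and 193 in marrow. The difference was -2.36 (SE 0.12, adjusted p 8.0e-34). miR-181b-5p differed by -1.51 and miR-181c-5p by -0.97, and the latter by -0.49 without the 18 spleen libraries. miR-181a-5p, which tunes antigen receptor signaling in developing lymphocytes, was the most abundant, with 420, 3889 and 11488 rpmm in spleen and 2844, 5196 and 9351 in marrow. It differed by -0.65 (SE 0.16, adjusted p 0.000153), but by -0.03 (adjusted p 0.809) without the 18 spleen libraries, and was not called with median-ratio scaling or by edgeR. The other 5 members were called toward marrow in all of these settings.

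**Figure D3:**
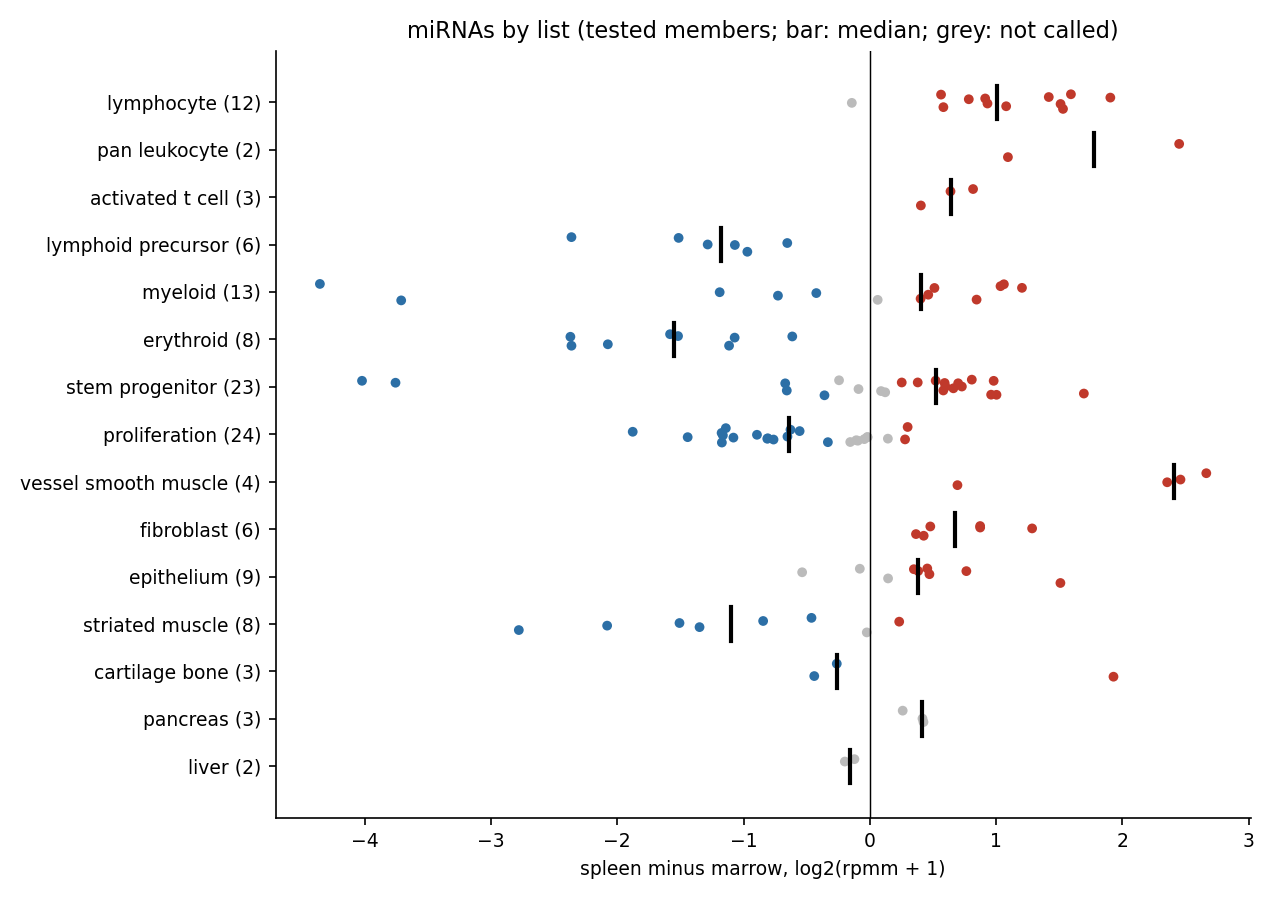
Difference between spleen and marrow (x axis, log2(rpmm + 1)) of each tested miRNA in 15 lists (rows, number tested in brackets), red where higher in spleen, blue where higher in marrow, grey where not called, with a bar at the median of each list. The 8 erythroid and 6 lymphoid precursor miRNAs lie left of 0, and 11 of 12 lymphocyte miRNAs lie right of it.

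The stem and progenitor list went in both directions. Of 23 tested members 14 were higher in spleen and 5 in marrow, against 38.8% and 38.6% of all tested miRNAs. The median was 0.52. The 18 spleen libraries left out, the counts were 17 and 4, against 52.9% and 28.3%, with a median of 0.81. The miR-196 miRNAs, which lie in the Hox clusters and repress Hox genes, were the ones far higher in marrow. miR-196b-5p, in an exon of Hoxa9 at chr6:52230129-52230150 (-), had 3.16, 13.3 and 87.2 rpmm in spleen and 110, 257 and 470 in marrow. The difference was -4.02 (SE 0.14, adjusted p 7.1e-47). miR-196a-5p had 0.682, 4.40 and 13.3 rpmm in spleen and 20.3, 68.6 and 143 in marrow, a difference of -3.76 (SE 0.13, adjusted p 5.25e-47). No spleen library reached the lowest marrow library for either. Of 16 tissues, marrow ranked 5 for miR-196b-5p and 6 for miR-196a-5p, and kidney and subcutaneous fat were higher for both.

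The miR-99, let-7 and miR-125 clusters are known from blood stem cells and also from stromal cells. In the cluster of miR-99b, let-7e and miR-125a at chr17:17830194-17830876 (+) all 5 tested products were called toward spleen, with a median of 0.70, and of 1.11 without the 18 spleen libraries. In the related group of miR-99a and let-7c at chr16:77598940-77599693 (+), 1 product was called toward spleen and 1 toward marrow, and the third was not called. Without the 18, 2 of these 3 were called toward spleen and none toward marrow. miR-99b-5p had 4.82, 34.4 and 116 rpmm in spleen and 6.00, 14.4 and 56.4 in marrow, a difference of 0.98 (1.58 without the 18). miR-125b-5p differed by 0.58 (1.08 without the 18) and miR-125b-1-3p by 1.00. miR-126a, which lies in the endothelial gene Egfl7 and marks vessels as well as stem cells, was also higher in spleen. miR-126a-3p had 601, 2005 and 5655 rpmm in spleen and 481, 967 and 2390 in marrow, a difference of 0.96, and miR-126a-5p differed by 1.69. Marrow had the lowest median of the 16 tissues for miR-99b-5p, miR-125b-5p and miR-126a-5p.

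The proliferation list held the miR-17 to miR-92a cluster and its relatives, which are driven by Myc and E2F in dividing cells. Of 24 tested members 15 were higher in marrow and 2 in spleen, against 38.6% and 38.8% of all tested miRNAs. The median was -0.64, or -0.39 without the 18 spleen libraries. With median-ratio scaling the counts were 13 and 8, and with miRNA-read scaling 19 and 0. The miR-106b, miR-93 and miR-25 cluster, inside the replication licensing gene Mcm7 at chr5:138165332-138165807 (-), was called toward marrow for all 6 products under each scaling. Its median difference was -1.16, and -0.74 without the 18 spleen libraries.

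Members with 1 seed went apart within this list. The seed AAAGUGC is shared by 6 tested miRNAs from 3 clusters. miR-93-5p (-1.17), miR-106b-5p (-0.81), miR-17-5p (-0.65) and miR-20a-5p (-0.56) were higher in marrow. miR-20b-5p (0.30) and miR-106a-5p (0.28), from the cluster at chrX:52741697-52742563 (-), were higher in spleen. Without the 18 spleen libraries the 6 kept these directions and were all called, with miR-93-5p at -0.56, miR-106b-5p at -0.39, miR-17-5p at -0.43, miR-20b-5p at 0.62 and miR-106a-5p at 0.69. The values of miR-20b-5p were 31.6, 97.7 and 309 rpmm in spleen and 40.6, 78.9 and 158 in marrow, so its libraries overlapped widely. miR-106a-5p (adjusted p 0.0435) lost its call when any of 32 single libraries was left out. With miRNA-read scaling the differences of miR-20b-5p and miR-106a-5p were 0.10 and 0.08. The 6 sequences differ from one another at few bases, and the alignment allowed 1 mismatch, so part of their reads may be shared. miR-18a-5p, which has its own seed in the same cluster as miR-17, had 306, 579 and 1368 rpmm in spleen and 676, 1367 and 2327 in marrow, a difference of -1.16 (SE 0.09, adjusted p 1.81e-22).

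Stromal miRNAs were mostly higher in spleen. All 4 tested members of the vessel and smooth muscle list, miR-143 and miR-145a, were called toward spleen with a median of 2.41. miR-143-3p had 2546, 10662 and 21310 rpmm in spleen and 547, 1549 and 2838 in marrow. The difference was 2.66 (SE 0.14, adjusted p 3.68e-32), and 47 of 48 spleen libraries lay above all of marrow. miR-145a-5p differed by 2.46 and miR-145a-3p by 2.35. Marrow had the lowest median of all 16 tissues for miR-145a-5p, and spleen ranked 8. All 6 members of the fibroblast list, the miR-199 and miR-214 miRNAs, were also called toward spleen, with a median of 0.68 and values from 0.37 for miR-199a-5p to 1.28 for miR-199b-5p. The former was not called when either of 2 single libraries was left out. The list median was 1.17 without the 18 spleen libraries, and miR-199a-5p was at 0.95. miR-199a-3p and miR-199b-3p have the same sequence and nearly the same values, and count as 1 measurement.

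The miRNAs of neighbouring tissues gave a measure of what else the samples held. Over all tested miRNAs 38.8% were called toward spleen and 38.6% toward marrow, or 52.9% and 28.3% without the 18 spleen libraries. The striated muscle list was higher in marrow for 6 of 8 tested members and in spleen for 1, with a median of -1.10 and a summed level of 226 to 3284 rpmm in marrow and 56.3 to 1376 in spleen. miR-206-3p, known from skeletal muscle, was at 0.0, 0.662 and 6.17 rpmm in spleen and 1.95, 9.92 and 116 in marrow, a difference of -2.78. Its median was 1858 in limb muscle, 678.6 in skin and 278.2 in bone. miR-1a-3p differed by -2.08 and miR-133a-3p by -1.51. The epithelial list was higher in spleen for 6 of 9 members, with a median of 0.38 (8 of 9 and 0.69 without the 18), led by miR-141-3p at 1.51, and its summed level ran from 169 to 579 rpmm in spleen and 140 to 337 in marrow. The pancreas list, of the organ that lies against the spleen, had no member called of 3 tested and a summed level of 2.72 to 380 rpmm in spleen and 1.21 to 109 in marrow. All 3 were called toward spleen without the 18 libraries. Of the 2 liver miRNAs neither was called. Of the cartilage and bone list 1 was higher in spleen, miR-204-5p at 1.93, and 2 in marrow, miR-140-3p at -0.44 and miR-140-5p at -0.26, both of which lost the call with median-ratio scaling. The direction of that list turned without the 18 spleen libraries, where 3 of 4 tested members were called toward spleen and none toward marrow, with miR-140-3p at 0.24 and miR-140-5p, not called, at -0.01. The part of muscle, epithelium or pancreas in other differences was not tested.

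The largest differences outside the lists were led by miR-187-3p toward spleen and miR-135a-5p toward marrow. miR-187-3p had 12.1, 118 and 499 rpmm in spleen and 2.46, 5.65 and 27.3 in marrow. The difference was 3.70 (SE 0.18, adjusted p 1.43e-33), and 42 of 48 spleen libraries lay above all of marrow. Spleen ranked 4 and marrow 16 of 16 tissues for it, with kidney first. miR-138-5p, best known from brain, had 55.5, 137 and 320 rpmm in spleen and 7.66, 14.7 and 86.1 in marrow, a difference of 3.02 (SE 0.12, adjusted p 5.75e-40). miR-497a-3p differed by 2.23, and miR-136-5p, from the imprinted region on chromosome 12, by 2.23.

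In the opposite direction, miR-135a-5p had 2.55, 7.95 and 16.9 rpmm in spleen and 58.9, 142 and 303 in marrow, without overlap. The difference was -4.00 (SE 0.11, adjusted p 5.0e-53). miR-147-3p, which is induced in macrophages by Toll-like receptors, had 1.62, 3.70 and 28.9 rpmm in spleen and 27.3, 73.0 and 182 in marrow, a difference of -3.82 (SE 0.12, adjusted p 1.45e-48), with 47 of 48 spleen libraries below all of marrow. miR-149-5p, from an intron of Gpc1 at chr1:92850381-92850403 (+), had 12.9, 112 and 812 rpmm in spleen and 254, 660 and 1501 in marrow, a difference of -2.73 (SE 0.17, adjusted p 9.31e-28). miR-3473e differed by -2.64.

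Among the most abundant miRNAs of either tissue the let-7 family showed how far the calls depend on the spleen set. Of 9 tested let-7 and miR-98 miRNAs with the seed GAGGUAG, 1 was higher in spleen and 4 in marrow. When the 18 spleen libraries were left out, 4 were higher in spleen and none in marrow. let-7a-5p had 1061, 6700 and 27756 rpmm in spleen and 3688, 8483 and 17549 in marrow, a difference of -0.49 (adjusted p 0.00397) with all libraries and 0.09 (adjusted p 0.494) without the 18. let-7c-5p, at -0.36 (adjusted p 0.0361), lost its call when any of 10 single libraries was left out and was 0.21 (adjusted p 0.132) without the 18. let-7e-5p was the member called toward spleen in both, at 0.60 and 1.06. miR-26a-5p, abundant in most tissues, had 4076, 12117 and 27176 rpmm in spleen and 5950, 10007 and 16787 in marrow, a difference of 0.12 (adjusted p 0.337), and of 0.49 (adjusted p 4.39e-06) without the 18.

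Neighbouring miRNA genes were described by position. Of 34 groups of 3 or more tested products that lie within 10 kb of the next on a strand, 8 held calls in both directions, and many groups hold both arms of a hairpin. In the cluster of miR-322, miR-503, miR-351, miR-542 and miR-450 at chrX:53048008-53054327 (-), 11 of 12 tested products were higher in marrow, with a median of -1.02. With median-ratio scaling it was 8 of 12, with none toward spleen, and without the 18 spleen libraries 10 of 12 with a median of -0.64. miR-221 and miR-222, which repress the stem cell factor receptor Kit, were called toward marrow for all 3 products at chrX:19146307-19146923 (-), with a median of -1.34, or of -0.86 without the 18. In the imprinted Dlk1-Dio3 region, chr12:109585818-109743486 (+), all 26 tested products of its 3 groups were higher in spleen. Their differences ran from 0.19 to 2.23 with a median of 0.61, and all 26 were called again without the 18 spleen libraries and under each scaling. By edgeR the median was 1.89, and 0.39 over all tested miRNAs. edgeR leaves out the added 1 rpmm, which shrinks differences of low RNAs, and also scales libraries in its own way. A product can pass the filter through spleen alone, which favours this direction. This region was singled out after its values were seen.

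**Figure D4:**
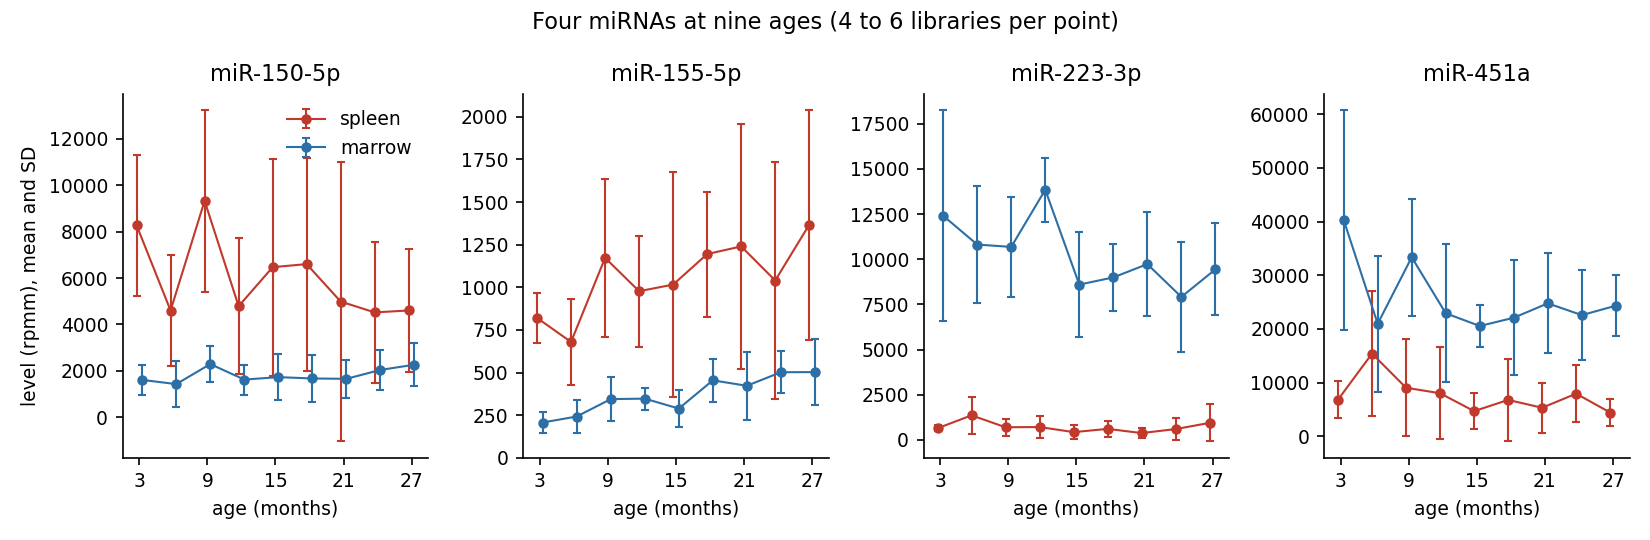
Mean level of miR-150-5p, miR-155-5p, miR-223-3p and miR-451a (y axis, rpmm, linear, with a range of its own in each panel) at 9 ages (x axis, months) in spleen and marrow, with bars of 1 SD over 4 to 6 libraries per point. At all 9 ages the mean of miR-150-5p and miR-155-5p was higher in spleen and that of miR-223-3p and miR-451a higher in marrow.

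The next question was whether the tissues drift apart with age or differ between the sexes. No RNA of 4038 was called for tissue by age (0.0% called), while 267 (6.61%) had an unadjusted p under 0.05, and edgeR called 0 as well, with 507 under 0.05. miR-155-5p rose by 1.29 on the log2 scale over 24 months along the fitted line in marrow and by 0.62 in spleen (difference -0.67, SE 0.40, adjusted p 0.734). Its mean at 3 months was 820 ± 147 rpmm in spleen (SD, 5 libraries) and 207 ± 64.2 in marrow (SD, 6 libraries), and at 27 months 1367 ± 675 and 503 ± 194 (SD, 4 libraries each). The fitted change of miR-150-5p was -0.89 in spleen and 0.33 in marrow, and that of miR-146a-5p was -0.73 and 1.26, with a difference of -1.98 (SE 0.67, adjusted p 0.496). The spleen slopes rest in part on the 18 libraries, which are absent at 3 months. No RNA of 4045 was called for tissue by sex over 3 to 21 months (0.0% called), 251 (6.21%) had an unadjusted p under 0.05, and edgeR called 0, with 184 under 0.05. On simulated data the age test found 22% of 2-fold and 95% of 4-fold differences. Most 2-fold differences in drift would thus be missed with these libraries. The simulation gave every RNA the same spread and left out the spleen split, so 4-fold differences could be missed too.

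RNA classes took different shares of the 2 tissues. tRNA fragments made up 4.29% ± 1.90 of the summed rpmm in spleen (SD, 48 libraries) and 18.4% ± 5.04 in marrow (SD, 50 libraries), and rRNA fragments 17.04% ± 4.87 and 23.2% ± 4.32. Small nuclear RNA (snRNA) held 29.96% ± 14.5 and 18.5% ± 3.03, small nucleolar RNA (snoRNA) 28.2% ± 7.83 and 19.2% ± 4.66, and miRNA 13.0% ± 4.49 and 10.7% ± 2.72. Long noncoding RNA held 7.33% ± 2.36 in spleen and 9.79% ± 1.93 in marrow. Adjusted p from 100000 shuffles of tissue within age was 0.00358 for miRNA and 1.33e-05 for each of the other 5 classes, from the smallest p of 1e-05 that the shuffles can give. The 18 spleen libraries carried much of the snRNA difference, with a median share of 47.98% against 19.96% in the other 30 and 18.4% in marrow. For snoRNA the median share was 33.6% in the other 30, 19.0% in marrow and 19.2% in the 18. Without them the snRNA difference was 2.39 percentage points (adjusted p 0.0145) in place of 11.5, that of miRNA 4.42 in place of 2.28, and that of long noncoding RNA -1.02 (adjusted p 0.0191) in place of -2.46. RNAs share reads, since the values of a library summed to 147% to 370% of its mapped reads in spleen and 148% to 240% in marrow.

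**Figure D5:**
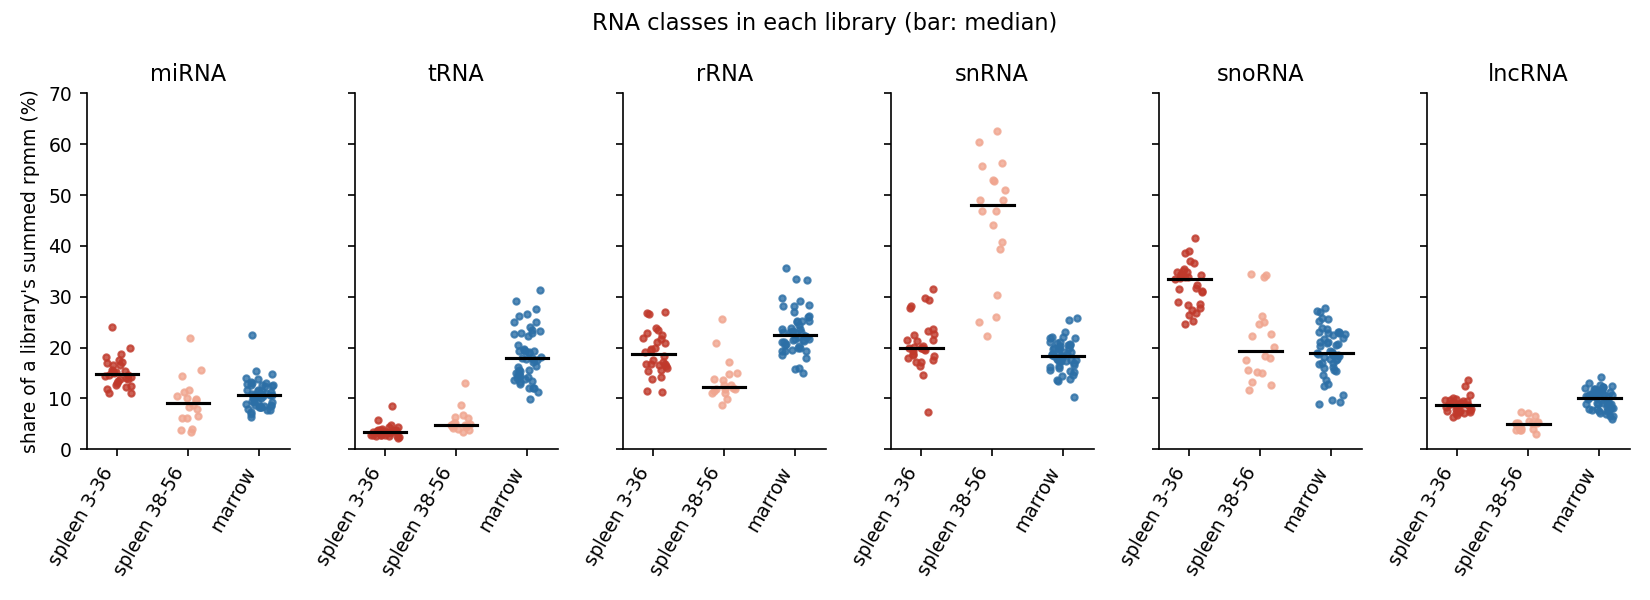
Share of 6 RNA classes in the summed rpmm of each library (y axis, percent), with spleen libraries numbered 3 to 36, spleen libraries numbered 38 to 56 and all marrow libraries in separate columns and a bar at each median. tRNA is low in both spleen columns (medians 3.31% and 4.74%, marrow 17.9%), whereas the high snRNA share is seen in the libraries numbered 38 to 56.

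Most tRNA, rRNA and long noncoding RNA entries were called toward marrow. Over all classes 1097 of 4038 RNAs (27.2%) were called toward spleen and 2050 (50.8%) toward marrow, 77.9% in all, and at least 2-fold differences were called for 5.67% and 17.8%. Without the 18 spleen libraries 25.9% and 56.9% were called toward spleen and marrow. Long noncoding RNAs gave 1218 of the 2050 calls toward marrow. Here and in the shares, this class also took in entries whose annotated type was neither a small RNA type nor a long noncoding one. Of 1726 tested, 207 were called toward spleen, and the median was -0.51. Median-ratio scaling gave 416 toward spleen and 1045 toward marrow for this class. Of 220 tRNA genes tested, 4 were called toward spleen and 191 toward marrow, with a median of -0.99. With median-ratio scaling the counts were 24 and 170. Of 170 rRNA entries none was called toward spleen and 164 toward marrow, with a median of -0.67, but with median-ratio scaling 98 and by edgeR 92 of 169 were called toward marrow, and 1 toward spleen in either. Identical gene copies have identical values, so these counts exceed the number of separate measurements.

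Fragments of the initiator tRNA, which carries the first methionine of every protein, differed most. tRNA-iMet-CAT-3-1 had 263, 482 and 2176 rpmm in spleen and 3180, 6544 and 15271 in marrow. Every marrow library lay above every spleen library, which 0.347% of all RNAs showed (0.0248% in the opposite direction), with a difference of -3.67 (SE 0.12, adjusted p 3.96e-49). Of 16 tissues, spleen had the lowest median and marrow ranked 6. Fragments of the elongator tRNA for methionine, by contrast, had a median difference of 0.09 over 6 distinct entries, with 1 called toward marrow. Grouped by anticodon, fragments of Glu-CTC and Gly-GCC tRNAs had the highest summed means in both tissues. Val-CAC came next, with 6423 ± 4999 rpmm in spleen (SD, 48 libraries) and 41930 ± 19003 in marrow (SD, 50 libraries). All 4 distinct Gly-GCC entries were called toward marrow with a median of -2.28, and their summed mean was 10757 ± 7358 rpmm in spleen (SD, 48 libraries) and 47022 ± 18298 in marrow (SD, 50 libraries). Glu-CTC summed to 9636 ± 4644 and 72787 ± 28528. All 20 distinct Cys-GCA entries were called toward marrow, from -0.31 to -3.65 for tRNA-Cys-GCA-1-1. Distinct entries differ in at least 1 library but may still share most reads. tRNA-Cys-GCA-1-1 and tRNA-Cys-GCA-2-1 had spleen medians of 48.1 and 48.2 rpmm. Summed levels can thus count a read more than once. The 12 distinct Lys-CTT entries went in both directions, from -1.14 to 0.60, with 5 called toward marrow and 1 toward spleen, and of 4 Lys-TTT entries 1 was called in either direction.

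Among the snoRNAs, Snora65, a guide of pseudouridylation, had the largest difference toward spleen among RNAs other than miRNAs with a mean of 10 rpmm or more. It had 316, 1033 and 13939 rpmm in spleen and 74.7, 223 and 470 in marrow. The difference was 2.83 (SE 0.24, adjusted p 2.57e-19), and 1.72 without the 18 spleen libraries, whose median was 6485 against 730 in the other 30. The predicted snoRNAs Gm24613 (2.22), Gm26440 (2.22) and Gm22807 (2.10) followed it. Of their runs of 15 bases, Gm24613 shared 84.5%, Gm26440 80.0% and Gm22807 69 of 115 with Snora65, so they may count the same reads. The noncoding transcript A230006K03Rik, at 0.491, 22.3 and 65.3 rpmm in spleen and 0.209, 4.28 and 22.3 in marrow, differed by 2.22. By number, 255 of 598 snoRNAs were called toward spleen and 173 toward marrow, but 198 and 216 with miRNA-read scaling, and 215 and 211 of 578 without the 18 spleen libraries. Of 702 snRNA entries 387 were called toward spleen and 64 toward marrow, but 129 and 339 of 680 without the 18 spleen libraries.

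The ratio of the arms of a hairpin hardly depends on how a library is scaled. Of 46 hairpins with both arms at a mean of 10 rpmm or more, 29 (63.0%) differed between the tissues, and 13 (28.3%) were shifted toward the 5p arm in spleen and 16 (34.8%) toward the 3p arm. miR-142a had the largest shift toward 5p. Its log2 ratio of 5p to 3p was -1.16 ± 0.85 in spleen (SD, 48 libraries) and -2.52 ± 0.56 in marrow (SD, 50 libraries), a difference of 1.36 (SE 0.14, limma adjusted p 3.63e-14), and of 0.92 without the 18 spleen libraries. miR-106b (1.07), miR-340 (1.05), miR-126a (0.73) and miR-223 (0.64) came next. Without the 18, miR-340 was at 0.54, miR-126a at 0.29 and miR-223 at 0.15 (adjusted p 0.303). Toward 3p the largest were miR-497a (-1.75), miR-574 (-1.38), miR-669o (-0.997), miR-362 (-0.90) and miR-486a (-0.84). Of these, miR-574 differed by -1.32 without the 18, while miR-669o was at -0.62, miR-497a at -0.49 and miR-486a at -0.21 (adjusted p 0.125). Over all libraries of a tissue, the stronger arm was the same in both tissues for each of these 10 hairpins. Within spleen, the mean log2 ratio of miR-497a was 3.30 in libraries 3 to 36 but -0.20 in those numbered 38 to 56.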

How the data were processed

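Small RNA of whole spleen and bone marrow was extracted with the miRNeasy Micro kit, made into libraries with the MGIEasy Small RNA kit and sequenced single-end on the BGISEQ500RS. Per the methods and the submitters' processing notes, the authors mapped reads to mm10 with miRMaster 2.0 and Bowtie 1.2.3, allowing 1 mismatch against miRBase 22, GtRNAdb 18.1, RNACentral 15 and Ensembl 100. The deposited signal is a rate, the rpmm value (a count scaled to 1000000 mapped reads of its library), which the authors computed for RNAs and libraries that passed their depth and level filters. A read that matches several RNAs counts for each.

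RNAs with 1 rpmm or more in at least 10% of the libraries of either tissue were kept, 4038 of 7883. limma 3.58.1 in R 4.3.3 (trend, log2(rpmm + 1), terms for tissue, age as a factor, and sex) gave differences, with Benjamini-Hochberg adjustment over all RNAs kept, and calls at adjusted p under 0.05. Interactions with age (a slope) and sex (to 21 months) and the log2 ratios of arms were fitted likewise. Class shares were compared by 100000 two-sided shuffles of tissue within age. Whole reads were recovered from the steps of the rpmm values in 95 of 98 libraries, with 99.4% of values whole within 0.05 reads, and served an edgeR 4.0.16 alternative. Of 771 columns, 3 could not be tied to a sample and were not used. Labels do not tie a library to a mouse across tissues, so p-values measure the spread between libraries. The fits were tested on simulated data.

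The members and lists were chosen with earlier results of these data known. Named RNAs are the miRNAs of the lists, the 10 largest called differences in each direction among miRNAs and the 5 largest among other RNAs, all with a mean of 10 rpmm or more in the higher tissue, the 10 most abundant miRNAs per tissue, and the 5 largest arm shifts in each direction. Python 3.11.15 was used for the rest.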

Additional observations from a re-analysis of the deposited data

Results flagged for a closer look

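Single libraries of miR-150-5p, miR-155-5p and miR-451a lay far from the others of their tissue and age by Dixon's test, in 7 of 72 groups, where chance gives about 1 in 20. miR-150-5p was at 13522 rpmm in spleen library 11 of 3 months (next highest 8241), at 15505 in library 32 of 18 months (next 7314) and at 16769 in library 31 of 21 months (next 5907). miR-155-5p reached 2596 rpmm in the same library 31 (next 1251). miR-451a reached 25215 rpmm in spleen library 5 of 12 months (next 6562), 22353 in library 35 of 18 months (next 4681) and 79678 in marrow library 56 of 3 months (next 41981). The causes were not tested.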

How the results depend on the processing

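The counts moved most with filters and thresholds. A mean of at least 10 rpmm gave 617 RNAs toward spleen and 911 toward marrow, 100 and 106 of them miRNAs, and no filter on low values gave 1721 toward spleen. With at least a 2-fold difference 229 and 718 RNAs, and 61 and 68 miRNAs, were called. Median-ratio scaling gave 148 miRNAs toward marrow and split all RNAs 1614 to 1586, miRNA-read scaling 834 to 2217, and edgeR 1611 to 1622. Tissue by age gave 115 RNAs with the 1-month libraries, 3 with age as a factor and 1 without the 18 spleen libraries. Tissue by sex gave 2 with those libraries as a covariate. Arm ratios gave 75 hairpins when both arms had a mean of at least 1 rpmm, and the miRNA share differed by 1.71 points in males only (adjusted p 0.0701).

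Leaving out each library in turn gave 1065 to 1109 RNAs toward spleen and 2010 to 2083 toward marrow, 218 to 230 and 219 to 228 miRNAs, 0 to 0 RNAs for age and for sex, and 29 to 30 hairpins. The title number as a replicate block gave 1034 and 2011 RNAs, 217 and 212 miRNAs and 28 hairpins. Of 43 numbers shared by the tissues 1 had the same age and sex in both, and deviations correlated at -0.273 to 0.361 with a median of 0.008, so the numbers do not pair the libraries.

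Without the 18 spleen libraries, differences turned positive for let-7a-5p (0.091), let-7c-5p (0.21), miR-140-3p (0.24), miR-146a-5p (0.66), miR-23a-3p (0.14) and miR-122-5p (0.03). With those libraries as a covariate the values were 0.10 for let-7a-5p, 0.21 for let-7c-5p, 0.25 for miR-140-3p, 0.66 for miR-146a-5p and 0.14 for miR-23a-3p. With numbers 1 to 36 in both tissues they were 0.087 for let-7c-5p, 0.25 for miR-140-3p, 0.0023 for miR-140-5p, 0.46 for miR-146a-5p and 0.12 for miR-23a-3p. Median-ratio scaling gave 0.017 for let-7c-5p and 0.11 for miR-140-5p. edgeR gave 0.03 for let-7a-5p, 0.15 for let-7c-5p, 0.16 for miR-140-3p, 0.058 for miR-140-5p and 0.065 for miR-23a-3p. The causes were not tested.

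The alternatives that set aside or adjust for those spleen libraries, match the numbers in both tissues or leave out marrow library 16 were chosen after seeing the data. Leaving out libraries closest to another tissue gave no value, since 0 of 98 were closest to the median of a tissue other than their own. Depth limits RNAs near 1 rpmm.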
